A study of Homo sapiens with 4 samples.

Results

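The genes described here are 10 members of the ETS family of transcription factors, taken by name: ETV6, FLI1, ERG, ETS1, ETS2, ELF1, ELF2, GABPA, ELK3 and ETV3. They are 10 of the 20033 protein-coding genes placed on the genome. H3K27Ac occupancy at these genes was read from 2 lists of broad peaks made by ChIPmentation, in which Tn5 transposase inserts the sequencing adapters into immunoprecipitated DNA. The cells were MOLM13, an established human AML line with a rearrangement of MLL1 (MLL1-r). The control library carries the treatment label None, while the treatment description of the series names DMSO for the untreated arm, and the second library came from cells exposed for 16 h to 500 nM of SNDX-50469, an inhibitor of the interaction of Menin with MLL1. Each condition has 1 H3K27Ac library of this single cell line, so no difference below has a replicate check, no test between conditions was made, and the spread of any value between cultures is unknown.

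ETS factors share a DNA-binding domain that recognises a short core, GGAA, and the members differ in the bases they prefer around it. Several act in blood cell formation, ERG and FLI1 in stem cells and megakaryocytes, ETV6 as a repressor needed for adult blood stem cells, and the relative SPI1 (PU.1) in myeloid cells. H3K27Ac, the acetylation of lysine 27 of histone H3, marks promoters and enhancers in use, and long runs of it over a gene body are typical of genes with clusters of enhancers.

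The stretches just before the start sites are shown because the share of control cover kept after SNDX-50469 was highest close to the 5′ ends, and because ETS factors can bind the family's own promoters. They were taken from the RefSeq promoter table of GRCh38.p14, for members whose listed start site is the outermost 5′ end of the gene. Each runs 5′ to 3′ in the direction of transcription, up to the base before the start site. Capitals mark the ETS core GGAA or its reverse complement TTCC. The ETV6 stretch lies at chr12:11649424-11649673 on the plus strand, the ETS2 stretch at chr21:38804933-38805182 on the plus strand, the ELF1 stretch at chr13:41061387-41061508 on the minus strand, the ELK3 stretch at chr12:96194125-96194374 on the plus strand and the ETV3 stretch at chr1:157138396-157138645 on the minus strand. The ELF1 stretch stops where the neighbouring gene WBP4 begins. The stretch before GABPA, whose listed start site is also the outermost one, is not shown because it lies wholly within the neighbouring gene ATP5PF.
ETV6: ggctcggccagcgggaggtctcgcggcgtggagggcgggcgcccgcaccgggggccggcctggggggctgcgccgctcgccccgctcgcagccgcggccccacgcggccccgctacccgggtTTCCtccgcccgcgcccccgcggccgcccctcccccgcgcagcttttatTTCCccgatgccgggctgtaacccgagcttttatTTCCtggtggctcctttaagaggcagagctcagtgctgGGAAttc
ETS2: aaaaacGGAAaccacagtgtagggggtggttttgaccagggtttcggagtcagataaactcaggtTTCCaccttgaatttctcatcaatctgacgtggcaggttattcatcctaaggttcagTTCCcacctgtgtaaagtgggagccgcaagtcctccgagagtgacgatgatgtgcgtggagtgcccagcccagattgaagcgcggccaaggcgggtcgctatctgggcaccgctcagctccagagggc
ELF1: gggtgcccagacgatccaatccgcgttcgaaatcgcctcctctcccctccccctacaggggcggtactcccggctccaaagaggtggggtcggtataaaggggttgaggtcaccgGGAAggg
ELK3: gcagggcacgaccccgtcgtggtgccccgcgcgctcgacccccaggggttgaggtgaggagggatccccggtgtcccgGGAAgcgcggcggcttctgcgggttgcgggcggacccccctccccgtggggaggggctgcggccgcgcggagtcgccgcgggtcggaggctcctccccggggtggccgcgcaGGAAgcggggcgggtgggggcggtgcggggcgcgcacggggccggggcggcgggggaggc
ETV3: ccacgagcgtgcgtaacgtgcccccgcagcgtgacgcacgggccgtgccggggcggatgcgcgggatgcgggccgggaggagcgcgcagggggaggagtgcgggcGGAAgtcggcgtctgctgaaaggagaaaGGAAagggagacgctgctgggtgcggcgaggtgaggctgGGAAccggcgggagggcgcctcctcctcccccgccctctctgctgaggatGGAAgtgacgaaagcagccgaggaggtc

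The windows of 300 bp around these start sites, 250 bp before and 50 bp after, differed in what the lists held. The ETV6 and ELF1 windows were covered over 300 bp in both lists. The ETV3 window was covered over 300 bp in control and 0 bp after SNDX-50469, and the ELK3 window over 292 bp and 0 bp. In the ETS2 window the control list covered 214 bp and the SNDX-50469 list 58 bp, at different positions. The 58 bp were the end of a peak of 159 bp, upstream of the start site, that shared no position with a control peak. The ETS2 start site itself lay inside a control peak and in no SNDX-50469 peak. The windows of ETV6 and ELF1 held 4 and 5 cores, and those of ETV3, ETS2 and ELK3 held 5, 4 and 2. Whether the number of cores goes with kept cover was not tested.

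Whole-series facts bear on every value below. The control list was much longer than the SNDX-50469 list, with 245875 peaks over 224 Mb against 54061 peaks over 29.4 Mb, and 9.71% of the control length was also covered after treatment. Read totals are not part of the lists. The background recovered from their fold values was 0.877 fragments per position in control and 0.735 after SNDX-50469, and the weakest peak stood at a pileup of 4 in control and 5 after treatment. The authors' fold and −log10 p measure each peak against its own library, so strengths are compared only within a list and positions between lists. Because the SNDX-50469 list ends at a higher −log10 p (3.93 against 2.68), a gene without a peak in it had no peak detectable at that cutoff and depth, which does not show that the mark was absent. Near the 5′ end, myeloid markers had control peaks at 8 of 8 genes, over 5966 to 10001 bp each, and SNDX-50469 peaks at 5 of 8. Of the other lineages, T cell markers had control peaks at 4 of 4 genes, over 350 to 8491 bp, and SNDX-50469 peaks at 0 of 4. The B cell, erythroid and epithelial markers had SNDX-50469 peaks at 1, 2 and 0 of 4 genes each and control peaks at 3, 3 and 1 of 4, with PAX5, HBB, EPCAM, KRT5 and KRT14 at 0 bp there in both lists. A control peak near a 5′ end was therefore no sign of lineage by itself.

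At the 5′ ends, 8 of the 10 ETS genes had a control peak within 5 kb and 7 had a SNDX-50469 peak there. Among 19662 protein-coding genes with a known strand these shares were 67.4% and 37.4%. The genes fell into distinct patterns. ETV6, ELF1, ELF2 and GABPA held long 5′ peaks in both lists, ETS2 and ETV3 a long control peak and a short remainder, ELK3 control peaks alone, and FLI1, ETS1 and ERG little or nothing. Some of the control length near the 5′ end was kept, meaning covered in both lists, at 6 of the 8 genes that had any, where the share among all genes with control cover was 50.8%. The shares over all genes include genes without any control cover. Of the 4976 genes with at least 10 kb of it over the gene and flanks, 4540 with a known strand had a control peak near the 5′ end. In that set 3136 had a SNDX-50469 peak there and 3029 kept some. ELK3, GABPA and ETV3 fall outside it.

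**Figure D1:**
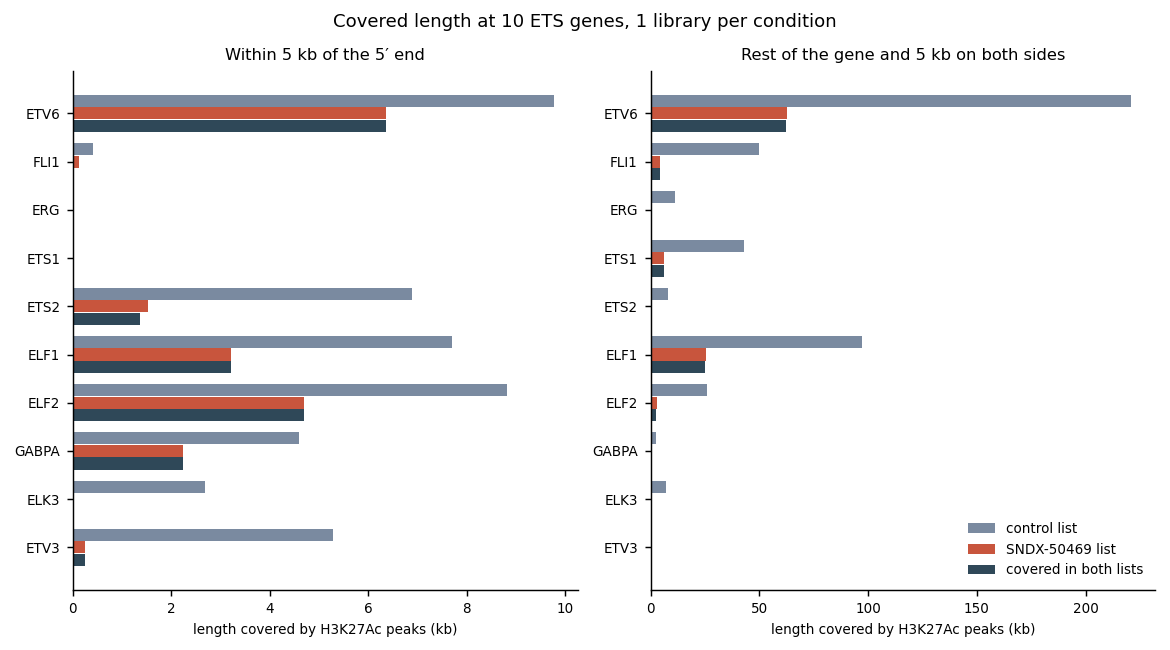
Length covered by H3K27Ac peaks (kb) at each of the 10 ETS genes within 5 kb of the 5′ end (left) and over the rest of the gene and 5 kb on both sides (right, another scale), in control, after SNDX-50469 and in both lists, with 1 library each and no error bars. ETV6 has the longest bars in both panels, and ERG and ELK3 have no bar after SNDX-50469.

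ETV6, a transcriptional repressor that is often rearranged in leukaemia, was the most heavily marked of the 10. Within 5 kb of its 5′ end (chr12:11649674-11895377, plus strand) peaks covered 9762 bp in control and 6348 bp after SNDX-50469, and 65.0% of the control length was kept. Over the rest of the gene and 5 kb on both sides they covered 220954 bp in control and 62719 bp after SNDX-50469, of which 62280 bp lay in both, a kept share of 28.2%. The control peaks thus filled 90.2% of the whole stretch and the SNDX-50469 peaks 27% of it. By covered length ETV6 ranked 11 in control and 7 after SNDX-50469 among the 20033 genes.

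The SNDX-50469 peaks of ETV6 lay mainly in 3 places. One peak of 5876 bp sat over the 5′ end, from −2.03 to 3.84 kb, where negative distances are upstream, and with a fold of 8.34 over background it was number 82 of the 54061 peaks of its list by strength. The largest place was deep in the gene. There a single control peak of 86589 bp ran from 84.8 to 171.4 kb after the 5′ end, and 25 SNDX-50469 peaks within it covered 54554 bp, 63.0% of its length and 79.0% of all SNDX-50469 cover at the gene. Beyond it 13 SNDX-50469 peaks between 173.2 and 213.7 kb covered 6669 bp, all of it inside control peaks. They included a peak of 2200 bp with a fold of 5.45, the third strongest at the gene. Control peaks of 10311 and 13080 bp there were covered over 23.1% and 24.3% of their length, and the strongest control peak of the gene, 5561 bp wide with a fold of 8.88, over 14.5%. In all, 9 of 44 control peaks were touched by a SNDX-50469 peak, by 1 bp or more (20.5%, Wilson 95% interval 11.2 to 34.5, counting error only), and 2 of 47 SNDX-50469 peaks lay outside control peaks.

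ETV3, a repressor related to ERF, had 1 wide control peak among its 5, 4940 bp long, from −3.18 to 1.75 kb around its 5′ end (chr1:157121191-157138395, minus strand). The fold of this peak was 4.32 and its −log10 q 3.95. After SNDX-50469 a peak of 250 bp remained, from −0.838 to −0.589 kb, so that 4.73% of the 5289 bp covered in control near the 5′ end was kept. Over the rest of the gene control peaks covered 411 bp and the SNDX-50469 list none.

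ELF1, an activator active in blood cells, and its relative ELF2 both had SNDX-50469 peaks over the 5′ end. For ELF1 (chr13:40931919-41061386, minus strand) peaks near the 5′ end covered 7699 bp in control and 3200 bp after SNDX-50469, all of it inside control peaks, and 41.6% was kept. The control peak over that end, 14753 bp wide, was covered over 24.3% of its length. Among peaks with −log10 q of at least 5, ELF1 kept 0% near the 5′ end. Over the rest of ELF1 they covered 97077 bp and 25272 bp, and 25.6% was kept. The 27 SNDX-50469 peaks were spread along the gene, the strongest at 53.0 to 58.7 kb and at 40.7 to 44.7 kb with folds of 5.64 and 5.61. Each of the 27 overlapped a control peak, while on chromosome 13 as a whole 52.7% of the SNDX-50469 peaks overlapped none (43.0% over all chromosomes). Control peaks filled 75.1% of ELF1 and its flanks, so an overlap was likely wherever a peak fell there. The 5′ end of ELF1 is 123 bp from that of WBP4 on the other strand, and the peaks over it cannot be given to either gene alone.

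ELF2 (chr4:139057220-139177915, minus strand) carried the strongest control peak of any member, with a fold of 9.82, 5419 bp wide over the 5′ end. Near the 5′ end the lists covered 8806 bp and 4687 bp and 53.2% was kept. Over the rest 26071 bp and 2738 bp were covered and 9.27% was kept. Among peaks with −log10 q of at least 5 the rest kept 70.6% and the 5′ end 68.9%, and at the same lowest −log10 p in both lists the rest kept 30.8%. The only SNDX-50469 peak there, 2738 bp wide, ran from 92.5 to 95.2 kb after the outermost 5′ end, over the other start site that RefSeq lists for the gene, 93.7 kb downstream. Of its 43 peaks in control, 4 were kept (9.30%, Wilson 95% interval 3.68 to 21.6), and those included the peaks at both start sites.

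GABPA, the DNA-binding subunit of the GABP complex and a regulator of many housekeeping genes, had 1 SNDX-50469 peak. It was 2234 bp wide and lay inside a control peak of 4174 bp over the 5′ end (chr21:25734972-25772460, plus strand). Near the 5′ end the lists covered 4590 bp and 2234 bp, and 48.7% was kept. Over the rest of GABPA 2492 bp were covered in control and 0 bp after SNDX-50469. The 5′ ends of GABPA and ATP5PF lie 681 bp apart within overlapping gene bodies, and the peak covers both.

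The paired genes ETS1 and ETS2, activators that respond to MAPK signalling, differed in where they were marked. ETS2 (chr21:38805183-38824955, plus strand) had 6889 bp of control cover near its 5′ end and 1529 bp after SNDX-50469, of which 1370 bp lay in both, a kept share of 19.9%. The SNDX-50469 cover was a peak of 1370 bp, 0.776 to 2.15 kb after the 5′ end, plus one of 159 bp before it that lay outside the control peaks. Over the rest of ETS2 control peaks covered 7975 bp and the SNDX-50469 list 0 bp. ETS1 (chr11:128458765-128587558, minus strand) had no peak within 5 kb of its outermost 5′ end in either list. Its marks lay in the gene body, 42997 bp in control and 6369 bp after SNDX-50469, with 14.8% kept. All 7 SNDX-50469 peaks of ETS1 fell between 95.3 and 106.2 kb after that end, inside 1 control peak of 26023 bp.

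FLI1 and ERG are close relatives in sequence and in their part in blood stem cells. At FLI1 (chr11:128685132-128813267, plus strand) cover near the outermost 5′ end was small, 415 bp in control and 128 bp after SNDX-50469, with 0 bp shared. Its marked stretch began just inside the gene. Over the rest of FLI1 peaks covered 49703 bp in control and 4091 bp after SNDX-50469, all inside control peaks, and 8.23% was kept. The strongest control peaks were one of 16368 bp at 29.8 to 46.2 kb and one of 8466 bp at 4.89 to 13.4 kb, and the strongest SNDX-50469 peak, 1673 bp wide with a fold of 4.77, lay inside the latter at 8.93 to 10.6 kb. Among its 34 peaks in control 3 were kept (8.82%, Wilson 95% interval 3.05 to 23.0). ERG (chr21:38367261-38661783, minus strand) had no peak near its outermost 5′ end in either list. Its 9 control peaks covered 11371 bp, most of it in peaks of 6141 and 3458 bp at 270.7 to 280.6 kb after that end, toward the 3′ end of the gene. The SNDX-50469 list had no peak over ERG or within 5 kb of it.

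ELK3, which binds DNA with SRF and represses until phosphorylated, had weak peaks in control and none in the SNDX-50469 list. Its 22 control peaks (chr12:96194375-96269824, plus strand) had folds of 2.66 to 3.42 and covered 2672 bp near the 5′ end and 7195 bp over the rest. The highest −log10 p among them was 3.92, below the 3.93 at which the SNDX-50469 list ends, so a peak of the strength ELK3 had in control could not have been listed after treatment. None of them was among the control peaks with −log10 q of at least 5, which ETV6 had 5 of, ELF1 4, FLI1 and ELF2 2 each, and ETS1, ETS2 and GABPA 1 each.

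**Figure D2:**
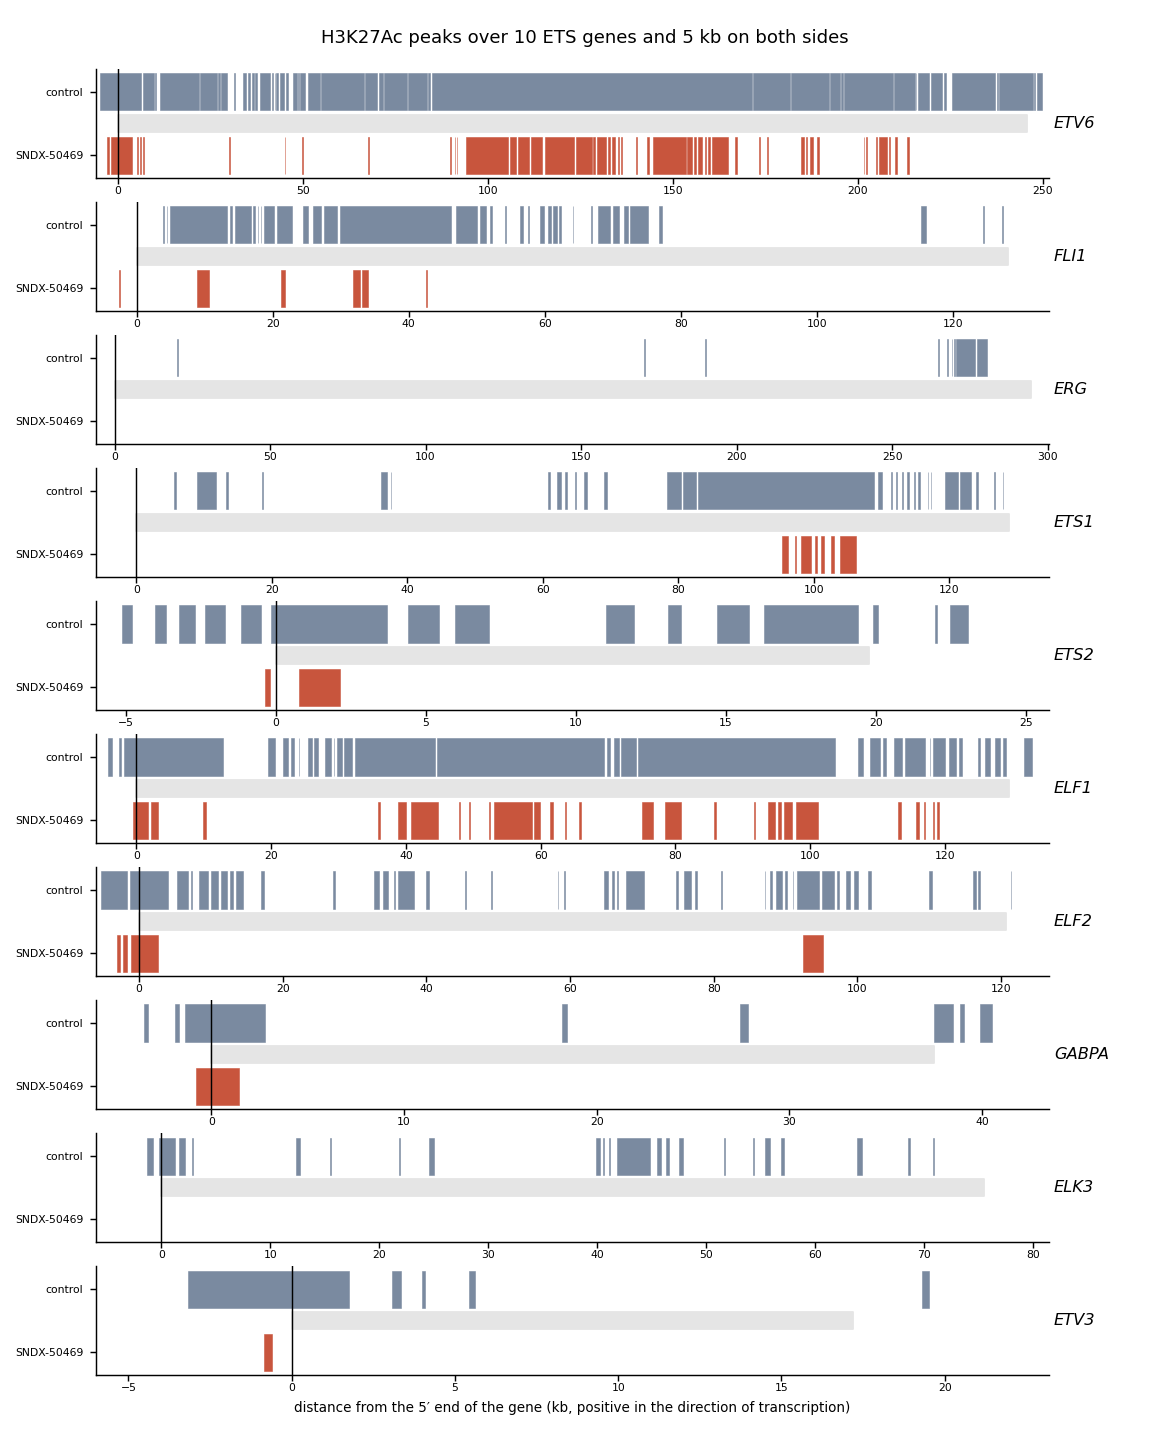
Position of every H3K27Ac peak over the 10 ETS genes (grey bars) and 5 kb on both sides, in kb from the outermost 5′ end (black line), with control peaks above and SNDX-50469 peaks below each gene, each gene on its own scale; peaks narrower than the drawn line appear at line width. SNDX-50469 peaks of ETV6 and ELF1 run deep into the gene, those of ETS1 sit in 1 cluster at 95.3 to 106.2 kb, and ERG and ELK3 have none.

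SNDX-50469 peaks at these genes nearly always lay on marked control chromatin. Of the 95 SNDX-50469 peaks over the 10 genes, 4 shared no position with a control peak (4.21%, Wilson 95% interval 1.65 to 10.3). Over all SNDX-50469 peaks of the list 43.0% shared none. By chromosome this share was 21.1% to 23.3% on 1, 11, 12 and 21, 37.6% on 4 and 52.7% on 13. Of the 95 peaks, 47 were at ETV6 and 27 at ELF1, where control peaks filled 90.2% and 75.1% of the gene and flanks. At these genes a SNDX-50469 peak would have met a control peak almost wherever it fell. In the other direction, 27 of 242 control peaks were kept, a share of 11.2% (7.78 to 15.7), and the 8.24% of all control peaks lies within that interval. Neighbouring peaks are not independent, and these intervals cover counting error only.

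Covered length over the gene and its flanks of 5 kb was at least 2-fold lower after SNDX-50469 at 10 of 10 ETS genes. This is close to the background, since 93.7% of the 15631 genes with a control peak were lower by that rule. A SNDX-50469 peak was present somewhere over the gene or its flanks at 8 of 10, against 52.1% of all genes. None of the control length was kept at 2 of 10, ERG and ELK3, against 44.8% of genes with a control peak. Both counts go with the amount of control cover. Of the 4976 genes with at least 10 kb of control cover, 4417 had a SNDX-50469 peak and 757 kept none, so by this set the ETS genes did not stand out. Of ERG's 9 control peaks 2 reached the −log10 p at which the SNDX-50469 list ends, and of ELK3's 22 none did, so the 0% of ELK3 cannot be told apart from the unequal ends of the lists. The kept share over the gene and flanks was highest for GABPA (31.5%) and ETV6 (29.7%), followed by ELF1 (26.8%), ELF2 (20.4%), ETS1 (14.8%), ETS2 (9.22%), FLI1 (8.16%) and ETV3 (4.39%). With 1 library per condition it is unknown which neighbours in this order differ beyond the spread between cultures. The median of the 10 was 12.0%, beside 2.36% over all genes with a control peak and 8.0% over the 4976 genes with at least 10 kb of control cover. ELK3, GABPA and ETV3 had less control cover than that (9867, 7082 and 5700 bp), so the 4976 are not a like set for all 10. The order of the ETS and all-gene medians turned when the lists had equal length. With the control list cut to its strongest peaks until it was as long as the SNDX-50469 list, ETV6, ETS2, ELF1 and ELF2 still had control peaks, and the median of these 4 was 44.5%, beside 46.9% over all genes. With the same lowest −log10 p in both lists, the median was 25.7% over 9 ETS genes and 9.79% over all genes.

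Summed over the 10 genes, 512368 bp were covered in control and 119565 bp after SNDX-50469, and 23.0% of the control length was kept, beside 11.6% over all genes. ETV6 alone held 45.0% of this control length and 57.8% of the SNDX-50469 length. Without ETV6 the kept share was 17.6%. Near the 5′ ends 39.2% of 46122 bp was kept, and over the rest 21.4% of 466246 bp. Over all genes these shares were 20.4% and 7.88%. The kept share was higher near the 5′ end than over the rest at 6 of the 8 genes that had control cover in both places. The exceptions were FLI1, with 0% near the 5′ end, and ELK3, with 0% in both places. For FLI1 this depended on the window. With a 5′ window of 10 kb it kept 19.8% near the 5′ end and 6.76% over the rest.

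**Figure D3:**
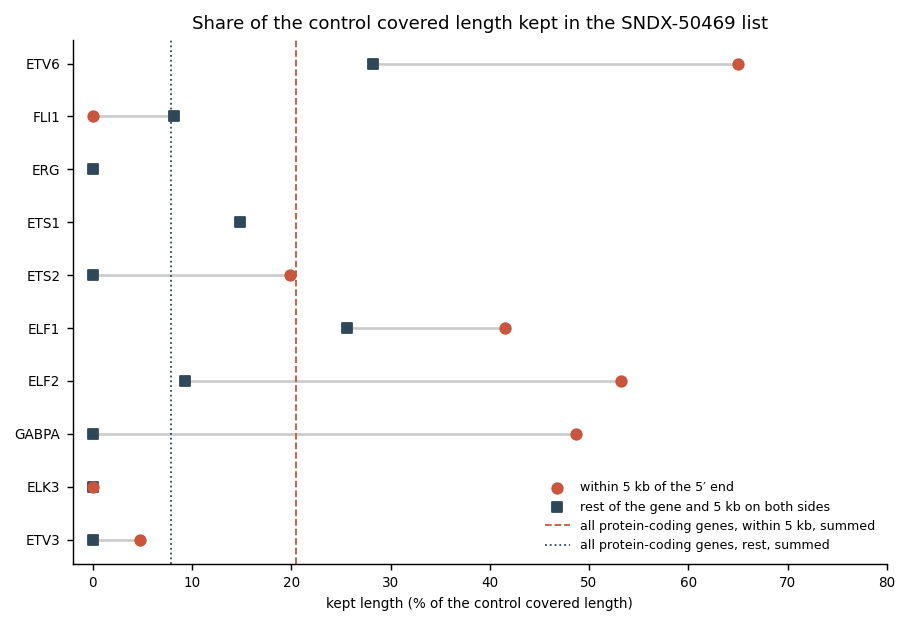
Kept length, as percent of the control covered length, within 5 kb of the 5′ end (circles) and over the rest of the gene and 5 kb on both sides (squares) for each of the 10 ETS genes, with the summed values of all protein-coding genes as vertical lines (20.4% and 7.88%). ETV6, ELF1, ELF2 and GABPA lie to the right of the dashed line near the 5′ end, ETS1 and ERG have no circle since no control peak lay there, and the ELK3 symbols overlap at 0.

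By distance from the 5′ end, in either direction, the kept share of the 10 genes was 54.6% within 2 kb and 22.0% at 2 to 5 kb. It was lowest at 5 to 20 kb, with 5.24%, and higher again further in, with 9.88% at 20 to 50 kb, 19.7% at 50 to 100 kb and 32.3% beyond 100 kb. Over all genes it fell through the same steps from 27.9% to 11.6%, 9.44%, 7.80%, 7.25% and 6.84%. The distant cover of the 10 genes belonged largely to ETV6. Without ETV6 the share beyond 100 kb was 13.2% and that at 50 to 100 kb 22.5%, the latter being mainly ELF1, ETS1 and the second start site of ELF2.

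**Figure D4:**
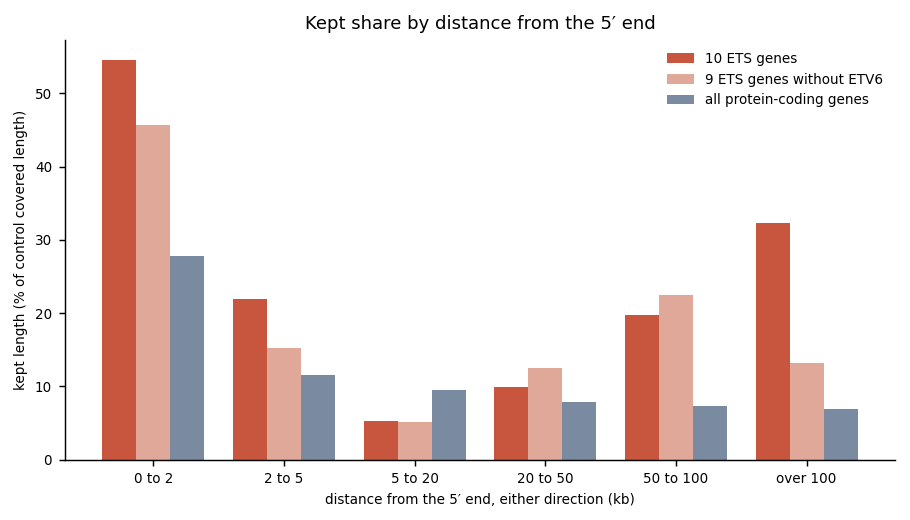
Kept length, as percent of the control covered length, in 6 steps of distance from the 5′ end (kb) for the 10 ETS genes, for the 9 without ETV6 and for all protein-coding genes, as bars without error since each condition has 1 library. The ETS bars are lowest at 5 to 20 kb (5.24%) and highest within 2 kb (54.6%), and beyond 100 kb leaving out ETV6 lowers the bar from 32.3% to 13.2%.

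Set beside the others, ETV6, FLI1 and ETS2 did not form a group apart in these lists. Their summed kept share was 25.1% (45.2% near the 5′ end and 23.8% over the rest) and that of the other 7 genes 20.3% (35.7% and 17.9%), but their median was 9.22% and that of the other 7 was 14.8%, so the order turned with the measure. The genes that lacked SNDX-50469 peaks near the 5′ end were ERG, ETS1 and ELK3, and of these ETS1 still had 7 SNDX-50469 peaks in its body. FLI1 resembled ETS1 more than ETV6 in having almost no cover at its outermost 5′ end. This likeness holds for that end alone, since FLI1 and ETS1 had no RefSeq promoter entry and no other start site was read. The strongest SNDX-50469 peak of FLI1 lay at 8.93 to 10.6 kb, and with a 5′ window of 10 kb FLI1 kept 19.8% there. Whether that peak lies at a start site was not tested. Among ETV6, FLI1 and ETS2, only ETS2 had its kept length at the 5′ end alone.

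The cover beyond the genes differed as well. In the 20 stretches of 45 kb that lie 5 to 50 kb outside the ends of the 10 genes, 6 held a SNDX-50469 peak. The same count was not made for other genes, so it has no background here. The stretch upstream of ELF2 (chr4:139182916-139227915), in which no protein-coding gene is annotated, stood apart, with 39601 bp covered in control and 17021 bp by 11 peaks after SNDX-50469, a kept share of 43.0%. Downstream of ELF2 the SNDX-50469 list covered 1800 bp, and in no stretch beside another member more than 626 bp. When peaks within 12.5 kb of each other were joined and the joined regions ranked by fold times length, the best region at ETV6 ranked 40 of 24668 in control and 29 of 18541 after SNDX-50469, that at ELF2 250 and 103, and that at ELF1 299 and 112. The control region at ELF2 was 465963 bp long and reached far beyond the gene. Its SNDX-50469 region (chr4:139175274-139223913, 48640 bp) lay mostly upstream of the gene. The control regions at ETV6 and ELF1, 311914 and 165525 bp long, also reached beyond the gene and its flanks, so these ranks are not those of the genes alone. At ETS2 the rank was 134 in control, within a region of 380674 bp that also reached beyond the gene, and 3630 after SNDX-50469, where the region was 2497 bp long. ETS1 with FLI1, and ERG with ETS2, are neighbours on the chromosome. Between the windows of ETS1 and FLI1 lie 87573 bp with 13 control peaks over 11616 bp, and between those of ERG and ETS2 133399 bp with 33 control peaks over 18524 bp. The SNDX-50469 list held 0 peaks in either gap, and gaps between other genes were not counted.

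Across the whole family of 28 human ETS genes, 22 had a control peak near the 5′ end, 15 a SNDX-50469 peak and 13 some kept length there. For the 18 genes beyond the 10 described, these counts were 14, 8 and 7. Over all genes 67.4% had a control peak and 37.4% a SNDX-50469 peak near the 5′ end, and 50.8% of those with control cover there kept some, so the 18 genes lay near the background. SPI1, which encodes PU.1, a master regulator of myeloid cells, had the longest SNDX-50469 cover of the 18, with 9411 bp near the 5′ end in control and 5407 bp after SNDX-50469, all of it shared (57.5% kept). ERF, a repressor, had 7540 and 3346 bp (44.4% kept). ELF4 had 4642 and 1161 bp, ETV1 4088 and 1155 bp, ETV4 2841 and 777 bp, and ELK4 2712 and 679 bp, with 14.3% to 25.0% kept. SPIB, a relative of SPI1 expressed in B cells and plasmacytoid dendritic cells, had 9241 bp in control and 141 bp after SNDX-50469. ETV7, the partner of ETV6 in the TEL subfamily, had 828 and 239 bp near the 5′ end, with none shared. FEV and ELF3 had no peak in either list over the gene or its flanks. None of the control length was kept at 7 of the 16 others with a control peak, a share near the 44.8% of all genes. By subfamily, SNDX-50469 peaks near the 5′ end were present at 3 of 3 ELF genes and 2 of 2 TEL genes. They were present at 2 of 3 ERF, PEA3 and SPI genes each, at 1 of 2 ETS genes, and at 1 of 3 ERG and TCF genes (the latter ELK1, ELK3 and ELK4) each. The ESE genes (ELF3, ELF5 and EHF), which are known from epithelial cells, had them at 0 of 3. EHF had 24 control peaks over 14577 bp, 1312 bp of it near the 5′ end.

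**Figure D5:**
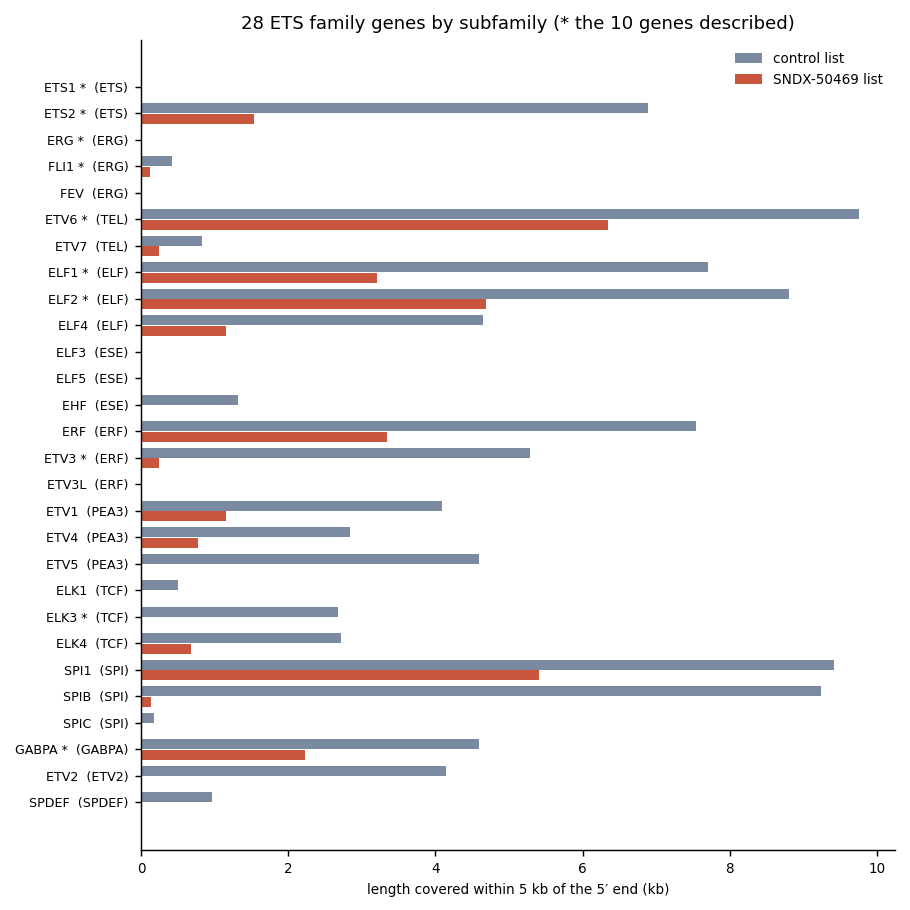
Length covered by H3K27Ac peaks within 5 kb of the 5′ end (kb) for the 28 human ETS genes by subfamily, before and after SNDX-50469, with 1 library each and an asterisk on the 10 genes described. ETV6, SPI1 and ELF2 have the longest SNDX-50469 bars (6348, 5407 and 4687 bp), and the ESE genes have none.

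Partners and regulators of ETS factors were read from a list of 12 genes: GABPB1, GABPB2, SRF, RUNX1, CBFB, MAPK3, SIN3A, NCOR1, HDAC3, COP1, CREBBP and EP300. All 12 had control peaks near the 5′ end and 11 had SNDX-50469 peaks there. Covered length was at least 2-fold lower at 11, longer at 0, and none of it was kept at 1. Over all genes 67.4% and 37.4% had such peaks near the 5′ end, 93.7% of those with a control peak were lower, and 44.8% kept none. The median kept share over the gene and flanks was 15.1%. SIN3A, a corepressor that ETV6 recruits, had the highest value, 59.4%, with 5313 bp near the 5′ end in control and 5710 bp after SNDX-50469. MAPK3, the kinase ERK1, had the lowest, 0%, with 4340 and 0 bp.

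Promoter windows of 300 bp were read at every start site that RefSeq lists. The table held 16 windows for 8 of the 10 genes, and FLI1 and ETS1 had no entry. Control peaks overlapped 11 of the 16 by 1 bp or more and SNDX-50469 peaks 9, beside 49.3% and 21.9% of the 22198 windows of all genes. Some of these overlaps were short. The SNDX-50469 list covered 58 and 20 bp of the ETS2 windows, and 36 bp of the ELF1 window 78.5 kb from the outermost 5′ end. Windows of the same gene are not separate cases. The core, GGAA or TTCC on either strand, occurred in 14 of the 16, and in 95.1% of all windows. The longer motif CCGGAAG, or CTTCCGG on the other strand, which contains the core, occurred in 1 of the 16, that of GABPA, and in 12.8% of all windows. A match is a run of letters and not a measured site.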

How the data were processed

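H3K27Ac peaks of MOLM13 cells were analysed from 1 control and 1 SNDX-50469 library, and the 2 inputs were left out. The deposited files are lists of broad peaks, 1 for each library, in which the authors did not pool libraries. In the deposited lists each peak has a ratio (fold over background, averaged over the peak), a −log10 p and −log10 q, and a score, which was not used. The submitters' processing notes name Trim Galore 0.6.5, Bowtie2 2.3.4.2, Picard 2.9.0, MACS2 2.1.2 and GRCh38, without options, and the supplementary methods name TopHat2 and hg38. Which aligner made these lists, and whether an input entered the calling, is not given in the sources used here. Depth is known only through the background recovered from the fold values.

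Python 3.11.15 with numpy 2.4.6, pandas 2.3.3, scipy 1.17.1 and matplotlib 3.10.9 was used. Genes were placed by the RefSeq annotation of GRCh38.p14, the build of hg38. The strand came from the RefSeq promoter table or, by symbol only, from GENCODE on GRCh37, whose coordinates were not used. A gene had a peak where at least 1 bp of one lay in the window. Kept length is what both lists covered, as percent of what the control list covered. The length of a peak crossing the edge of the 5 kb window was divided at that edge, and no position was counted in both places. Interval arithmetic was tested on simulated data. The members and lists were chosen with earlier results of these data known. Named genes were all 10 members, every other ETS gene with a SNDX-50469 peak near its 5′ end or no peak in either list, genes sharing a peak with a member's 5′ window, and the pathway genes with the highest and lowest kept share. One gene of the pathway list is not reported here, and the counts and median of that list leave it out. EHF, ELF5 and ELK1 were named beside their subfamilies after their values were seen. Each condition has 1 library, so no p-value was computed. Alternatives changed the 5′ window, the flank, the cutoffs on −log10 q and −log10 p, the peak width, the length of the control list, the measure of kept and the start sites.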

Additional observations from a re-analysis of the deposited data

How the results depend on the processing

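The count of 7 ETS genes with a SNDX-50469 peak near the 5′ end became 2 among peaks with −log10 q of at least 5. At that cutoff the kept share over the rest was 6.50%, the median 0% and 4 genes kept none, of the 7 that still had control cover (the all-gene median was also 0%). When only the 3633 strongest control peaks were used, which together are as long as the SNDX-50469 list, the share over the rest was 47.1%, the median 44.5% and 0 genes kept none, of the 4 with control cover left, while the all-gene median rose from 2.36% to 46.9%. At the common −log10 p of 3.93 the median was 25.7% (all genes 9.79%) and 1 of 9 genes kept none, ELK3 having no control peak left. Counting control peaks sharing 1 bp gave 8.80% over the rest. Counting control peaks covered over at least 0.5 of their length gave 11.5% near the 5′ end, 0.926% over the rest, a median of 0% and 7 genes with none kept. Without ETV6, an alternative chosen after seeing the data, the share over the rest was 15.4%. The summed share stayed higher near the 5′ end than over the rest in all 13 alternatives, with 32.3% and 15.4% without ETV6, but by gene it was higher at 1 of 4 genes at −log10 q of at least 5 and at 3 of 8 genes when most of a control peak had to be covered. For ELF2 the share over the rest was 26.1% with flanks of 50 kb and 0% when the windows were set at every RefSeq start site, which moves its second start site out of the rest. With flanks of 50 kb the all-gene median was 5.66% and that of the ETS genes 10.6%. No paired analysis was possible because a single library stands for each condition.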
